A study of Mus musculus with 13 samples.

Results

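The 40 genes described here encode the glycolytic pathway from glucose uptake to lactate export, the kinases and carriers that set pyruvate entry into mitochondria, the pentose phosphate pathway, and 4 genes of the response to low oxygen. They were chosen by symbol, though with earlier results of these data known, from a deposited table of 56748 genes. The data are 13 libraries of CD4+ T helper cells from mouse spleen. All 40 symbols were found, on 41 rows because Aldoa had a second row whose level did not exceed 0.139 CPM in any library. After the low-count filter 14059 genes were tested, 39 of the 40 among them. Hk3, a hexokinase of myeloid cells, did not pass, at 0 to 1.81 CPM.

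All mice carried a Thy1.1 reporter of Foxp3, received 50 µg of an NK1.1-depleting antibody on days -2 and 5, and were grafted on day 0 with Vk12653 myeloma, a transplantable plasma cell tumour. Spleen cells were sorted on day 18 as TCR+, CD4+ and Thy1.1 negative, which removes cells that express the Foxp3 reporter. Eomes-TKO mice given 20 µg of an agonist antibody to the T cell costimulatory receptor 4-1BB on days 10, 13 and 16 yielded 2 libraries. Eomes-GFP mice given the same antibody gave 3 libraries of GFP+ cells and 3 of GFP− cells, GFP being a reporter of the T-box transcription factor Eomes. After control IgG, Eomes-TKO mice yielded 3 libraries and Eomes-GFP mice 2, in which cells were not split on GFP. The construction of Eomes-TKO, and the cell types in which Eomes is altered, are not given in the sources used here. Libraries were made from 11 ng of RNA and held 6080975 to 10881146 estimated counts, of which the 40 genes took 0.376% to 0.596%.

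Glycolysis breaks glucose down to pyruvate and yields ATP without oxygen. Pyruvate is then reduced to lactate and exported, or enters mitochondria through the pyruvate carrier and is oxidised by pyruvate dehydrogenase, which the pyruvate dehydrogenase kinases switch off. T cells that are activated raise glucose uptake and glycolysis, and HIF-1α, the product of Hif1a, drives many glycolytic genes together with Pdk1 and Bnip3 when oxygen is low. The pentose phosphate pathway draws on the same glucose 6-phosphate to make NADPH and ribose for nucleotides.

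Levels are given as CPM, in which TMM scaling puts the counts of all libraries on one size. Eomes had 570.3, 706 and 685 CPM in GFP+ libraries, against 3.54, 1.83 and 2.26 CPM in GFP− libraries and 14.0 and 16.8 CPM in the Eomes-GFP IgG libraries. In Eomes-TKO libraries it stood at 3.59 and 8.03 CPM under 4-1BB antibody and at 1.36, 2.96 and 3.19 CPM under IgG. Cd4 and Cd3e were at 668 CPM or more in every library.

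Markers of T cells and of other cell types moved with the GFP sort. Of 7 T cell markers 6 were higher in GFP+ than in GFP− cells, with sums of 4601 to 5393 CPM in GFP+ libraries and 3278 to 3482 CPM in GFP− libraries. Of the CD8 chains Cd8b1 was lower, at 1.11 to 5.59 CPM in GFP+ libraries and 5.96 to 9.87 CPM in GFP− libraries, and Cd8a was at 3.76 CPM or less throughout. The 4 regulatory T cell genes split. Ikzf2 was higher, at 545, 621 and 541 CPM in GFP+ libraries against 47.9, 85.7 and 72.6 CPM in GFP− libraries, and so was Ctla4, at 79.3 to 100.4 CPM against 31.9 to 37.1 CPM. Foxp3, their defining factor, was lower, at 0.393 to 0.554 CPM in GFP+ libraries and 1.10 to 1.95 CPM in GFP− libraries, and did not exceed 2.65 CPM in any library. Il2ra was also lower, and the 4 genes summed to 623 to 727 CPM in GFP+ libraries and 101 to 134 CPM in GFP− libraries. Of the 8 plasma cell and myeloma markers 4 were tested. Igkc, the immunoglobulin kappa constant region, was higher, at 76.1, 82.0 and 79.6 CPM in GFP+ libraries against 0.488, 0.487 and 0.0903 CPM in GFP− libraries. Ighm was lower, at 117 to 153 CPM in GFP+ libraries and 253 to 265 CPM in GFP− libraries, and the 8 genes summed to 264 to 284 CPM in GFP+ libraries and 309 to 321 CPM in GFP− libraries. Sdc1, the defining plasma cell surface marker, was at 0.487 CPM or less in all libraries. In Eomes-TKO under 4-1BB antibody Igkc stood at 7.34 and 15.6 CPM and Jchain at 4.68 and 3.23 CPM. The 10 myeloid markers, of which Itgam, Cd68 and Itgax were called, all higher, summed to 58.3 to 85.4 CPM in GFP+ libraries and 17.8 to 35.2 CPM in GFP− libraries, with Cd14 and Fcgr1 at 0.244 CPM or less throughout. In the list of NK and innate-like T cells, which holds Eomes itself, Zbtb16 was lower at 0.131 to 1.07 CPM in GFP+ libraries and 7.23 to 16.8 CPM in GFP− libraries. Klrb1c was lower at 0.393 to 0.554 CPM in GFP+ libraries and 0.813 to 1.95 CPM in GFP− libraries, reaching 13.0 CPM elsewhere, and Ncr1 was at 0.104 CPM or less. Pecam1, the 1 tested gene of the stroma and endothelium list, was lower, at 73.1 to 93.4 CPM in GFP+ libraries and 195 to 265 CPM in GFP− libraries. In bulk samples fewer cells expressing a gene and less of its RNA per cell cannot be told apart.

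Within 4-1BB-treated Eomes-GFP mice, GFP+ cells differed from GFP− cells in 23 of the 39 genes tested, at an adjusted p below 0.05. Of these 15 were higher and 8 lower in GFP+ cells. Over all 14059 genes 37.1% were called in this comparison, 20.7% as higher and 16.5% as lower. Both glucose carriers and both tested hexokinases were higher, together with Hif1a, Gapdh and Pdk3. Pdk1, Pdk2, Pfkfb4, Ldhb and Bnip3 were lower. The median log2 fold change was 0.25 over the 39 genes and 0.02 over all genes tested. Under upper-quartile scaling, which moved the median of all genes to −0.12, 7 members were called higher and 9 lower, and the median of the members was 0.11. A fold threshold aside, the members called under every alternative scaling, filter, tool and omitted library were 7 of those higher and 6 of those lower, namely Slc2a3, Hk2, Pfkp, Gapdh, Bpgm, Pdk3 and Hif1a and, in the other direction, Pfkfb4, Ldhb, Pdk1, Pdk2, Pdha1 and Bnip3. Without the second GFP− library 15 members were called. With a test against a fold of 1.5 the count was 5. Shares of all genes called are given for the main fit only, here and below. Member counts under alternatives thus have no background beside them.

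**Figure D1:**
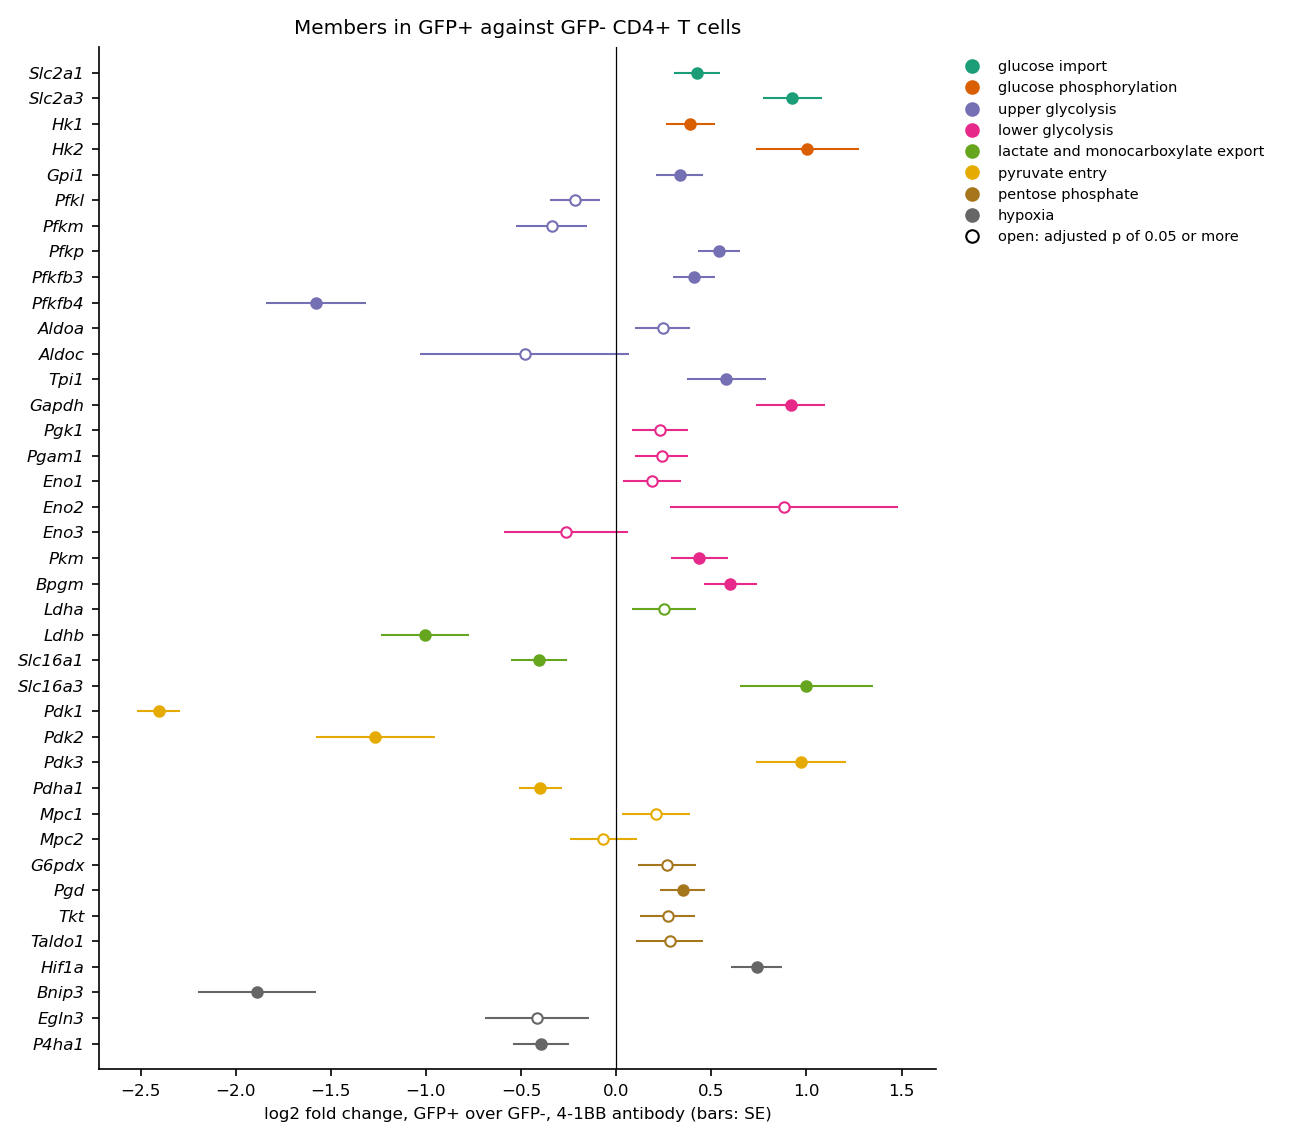
Log2 fold change of each of the 39 tested genes in GFP+ over GFP− cells of 4-1BB-treated Eomes-GFP mice (x axis, log2 scale), ordered and coloured by role. Bars are SE, filled points had an adjusted p below 0.05 and open points did not. Pdk1 lies farthest left at −2.40, and Hk2 and Slc16a3 farthest right at 1.00.

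The same GFP+ libraries stood apart in proliferation. Of 33 cell cycle genes 31 were higher in GFP+ than in GFP− cells and none was lower, with a median log2 fold change of 1.62. Their mean log2 CPM was 5.58 to 6.14 in GFP+ libraries and 4.28 to 4.46 in GFP− libraries. The part of these genes, or of the markers of other cell types above, in the differences of the 40 genes was not tested.

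Glucose enters T cells mainly through GLUT1 (Slc2a1) and the high-affinity carrier GLUT3 (Slc2a3). Slc2a3 stood at 77.7, 119.7 and 78.8 CPM in GFP+ libraries, against 48.4, 52.0 and 44.9 CPM in GFP− libraries. Each GFP+ library was above each GFP− library, the second GFP+ library most of all. The log2 fold change was 0.93 (SE 0.16, adjusted p 0.000327). The share of all genes without overlap is not given, so lack of overlap is a description only, here and below. Between GFP+ and GFP− cells 3 members without a call also did not overlap. Slc2a1 stood at 58.2, 69.0 and 51.0 CPM in GFP+ cells, against 45.6, 42.2 and 44.9 CPM in GFP− cells, again without overlap. Its log2 fold change was 0.42 (SE 0.12, adjusted p 0.0119), a call that was lost under upper-quartile scaling and without the second GFP+ library.

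Hexokinases trap glucose as glucose 6-phosphate, and Hk2 is the form induced on T cell activation. Hk2 stood at 9.84, 9.43 and 6.88 CPM in GFP+ libraries, against 4.76, 4.75 and 3.52 CPM in GFP− libraries. The lowest GFP+ library was above the highest GFP− library, and the log2 fold change was 1.00 (SE 0.27, adjusted p 0.00881). Hk1, the constitutive form, stood at 214, 249.5 and 233 CPM in GFP+ cells, against 179, 186 and 168 CPM in GFP− cells. Its log2 fold change was 0.39 (SE 0.13, adjusted p 0.0268), and this call was also lost under upper-quartile scaling. The Hk1 call held in 2 of 6 fits with 1 library left out. Per kilobase of transcript Hk1 remained the more abundant hexokinase, at 60.3 ± 4.58 CPM per kb in GFP+ and 46.0 ± 2.37 CPM per kb in GFP− cells (SD, n = 3 each). Hk2 was at 1.58 ± 0.291 CPM per kb in GFP+ and 0.788 ± 0.129 CPM per kb in GFP− cells.

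In upper glycolysis 4 of 9 genes were higher, 1 lower, and 4 were not called. Pfkp, the platelet-type phosphofructokinase subunit, stood at 252, 211 and 218 CPM in GFP+ libraries and 174, 154 and 141 CPM in GFP− libraries. The groups did not overlap, and the log2 fold change was 0.54 (SE 0.11, adjusted p 0.00136). The liver and muscle subunits Pfkl and Pfkm were not called, with log2 fold changes of −0.22 (SE 0.13) and −0.34 (SE 0.18). Per length Pfkp was the most abundant of the 3 subunits in GFP+ cells, at 54.8 CPM per kb, against 15.9 for Pfkl and 3.23 for Pfkm. Gpi1, which turns glucose 6-phosphate into fructose 6-phosphate, and Tpi1, the triose phosphate isomerase, had log2 fold changes of 0.33 (SE 0.12) and 0.58 (SE 0.21). Both calls were lost under upper-quartile scaling. A fold threshold aside, the Gpi1 call held in 4 of 16 alternatives, none of them with a library left out, and the Tpi1 call in 9 of 16. Aldoa, the aldolase of most tissues, did not overlap between groups, at 274 to 330.2 CPM in GFP+ cells, against 232 to 269 CPM in GFP− libraries, but was not called (a log2 fold change of 0.24, SE 0.14, adjusted p 0.207). Aldoc was below 2.5 CPM in these 6 libraries and was not called.

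The bifunctional enzymes PFKFB3 and PFKFB4 set the level of fructose 2,6-bisphosphate, the allosteric activator of phosphofructokinase, and both are known targets of hypoxia. They moved in opposite directions. Pfkfb3 stood at 76.9, 81.0 and 84.5 CPM in GFP+ libraries, against 66.3, 53.0 and 63.0 CPM in GFP− libraries. Pfkfb4 stood at 1.94, 3.01 and 2.36 CPM in GFP+ libraries, against 7.68, 8.29 and 6.05 CPM in GFP− libraries. Neither gene overlapped between the groups. The log2 fold change of Pfkfb4 was −1.58 (SE 0.26, adjusted p 0.000289) and that of Pfkfb3 was 0.41 (SE 0.11, adjusted p 0.00892). Pfkfb3 was not called under upper-quartile scaling, nor without the third GFP+ or the second GFP− library.

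In lower glycolysis 3 of 8 genes were called, all higher. Gapdh, which carries out the oxidation step, stood at 1039, 1465 and 952 CPM in GFP+ libraries and 596, 657 and 578 CPM in GFP− libraries. Its log2 fold change was 0.92 (SE 0.18, adjusted p 0.00127), with every GFP+ library above every GFP− library. Pkm, the pyruvate kinase of T cells, stood at 529.7, 749 and 517 CPM in GFP+ cells, against 436, 445 and 445 CPM in GFP− cells. Its log2 fold change was 0.44 (SE 0.15, adjusted p 0.0324), a call lost under upper-quartile scaling. The Pkm call held in 2 of 6 fits with 1 library left out. Bpgm, which makes the 2,3-bisphosphoglycerate of red cells, stood at 27.3, 39.4 and 34.1 CPM in GFP+ cells, against 22.6, 23.1 and 20.9 CPM in GFP− cells (a log2 fold change of 0.60, SE 0.14, adjusted p 0.00357). Beside it, 8 erythroid markers summed to 2.90 to 14.3 CPM in GFP+ libraries and 2.26 to 28.9 CPM in GFP− libraries. Pgk1, Pgam1, Eno1, Eno2 and Eno3 were not called and overlapped between the groups.

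At the lactate end Ldhb and Slc16a1 were lower and Slc16a3 higher, while Ldha was not called. Ldhb, the lactate dehydrogenase subunit that prevails in oxidative tissues, stood at 5.68, 9.82 and 6.98 CPM in GFP+ libraries, against 14.6, 17.9 and 12.7 CPM in GFP− libraries. The groups did not overlap, and the log2 fold change was −1.005 (SE 0.23, adjusted p 0.00322). Ldha, the subunit of glycolytic tissues and a HIF-1 target, stood at 316, 439 and 289 CPM in GFP+ libraries and 262, 311 and 303 CPM in GFP− libraries. These overlapped, and Ldha was not called (a log2 fold change of 0.25, SE 0.17, adjusted p 0.273). The lactate exporter MCT4 (Slc16a3) stood at 6.10, 5.89 and 4.19 CPM in GFP+ cells, against 3.29, 2.92 and 1.90 CPM in GFP− cells. Its log2 fold change was 1.00 (SE 0.35, adjusted p 0.0361), not called under upper-quartile scaling. The Slc16a3 call held in 2 of 6 fits with 1 library left out. MCT1 (Slc16a1), which carries lactate in either direction, was lower, at 26.7, 28.9 and 19.8 CPM in GFP+ cells, against 35.5, 34.0 and 30.3 CPM in GFP− cells (a log2 fold change of −0.41, SE 0.15, adjusted p 0.0415). This call was lost without a low-count filter and held in 3 of 6 fits with 1 library left out.

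The largest difference among the 39 genes was in Pdk1, which encodes a kinase that inactivates pyruvate dehydrogenase. Pdk1 stood at 64.2, 54.9 and 56.3 CPM in GFP+ libraries, against 340.2, 278 and 310.3 CPM in GFP− libraries. The GFP+ libraries lay close together and far below all other libraries used here, as the plot of levels by library shows. The log2 fold change was −2.40 (SE 0.11, adjusted p 1.51e-09). Pdk2, a second kinase of the family, stood at 2.36, 4.19 and 3.33 CPM in GFP+ cells, against 7.44, 8.04 and 8.40 CPM in GFP− cells, also without overlap (a log2 fold change of −1.27, SE 0.31, adjusted p 0.00534). Pdk3 went the other way, with 24.1, 41.2 and 26.4 CPM in GFP+ libraries and 16.3, 14.9 and 15.5 CPM in GFP− libraries. Its log2 fold change was 0.97 (SE 0.24, adjusted p 0.00479). Per length Pdk1 fell to 11.3 ± 0.966 CPM per kb in GFP+ cells, against 59.7 ± 6.02 in GFP− cells, and Pdk3 stood at 14.5 ± 4.39 in GFP+ and 7.37 ± 0.350 in GFP− cells (SD, n = 3 each). Pdk1 was thus the more abundant transcript of the pair in GFP− cells, whereas in GFP+ cells their means differed by less than the SD of Pdk3. Pdha1, the catalytic subunit that these kinases phosphorylate, stood at 98.1, 102 and 100.04 CPM in GFP+ cells, against 129.5, 128 and 138 CPM in GFP− cells (a log2 fold change of −0.40, SE 0.11, adjusted p 0.0122). Mpc1 and Mpc2, the 2 subunits of the mitochondrial pyruvate carrier, were not called, at 0.21 (SE 0.18) and −0.07 (SE 0.18).

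**Figure D2:**
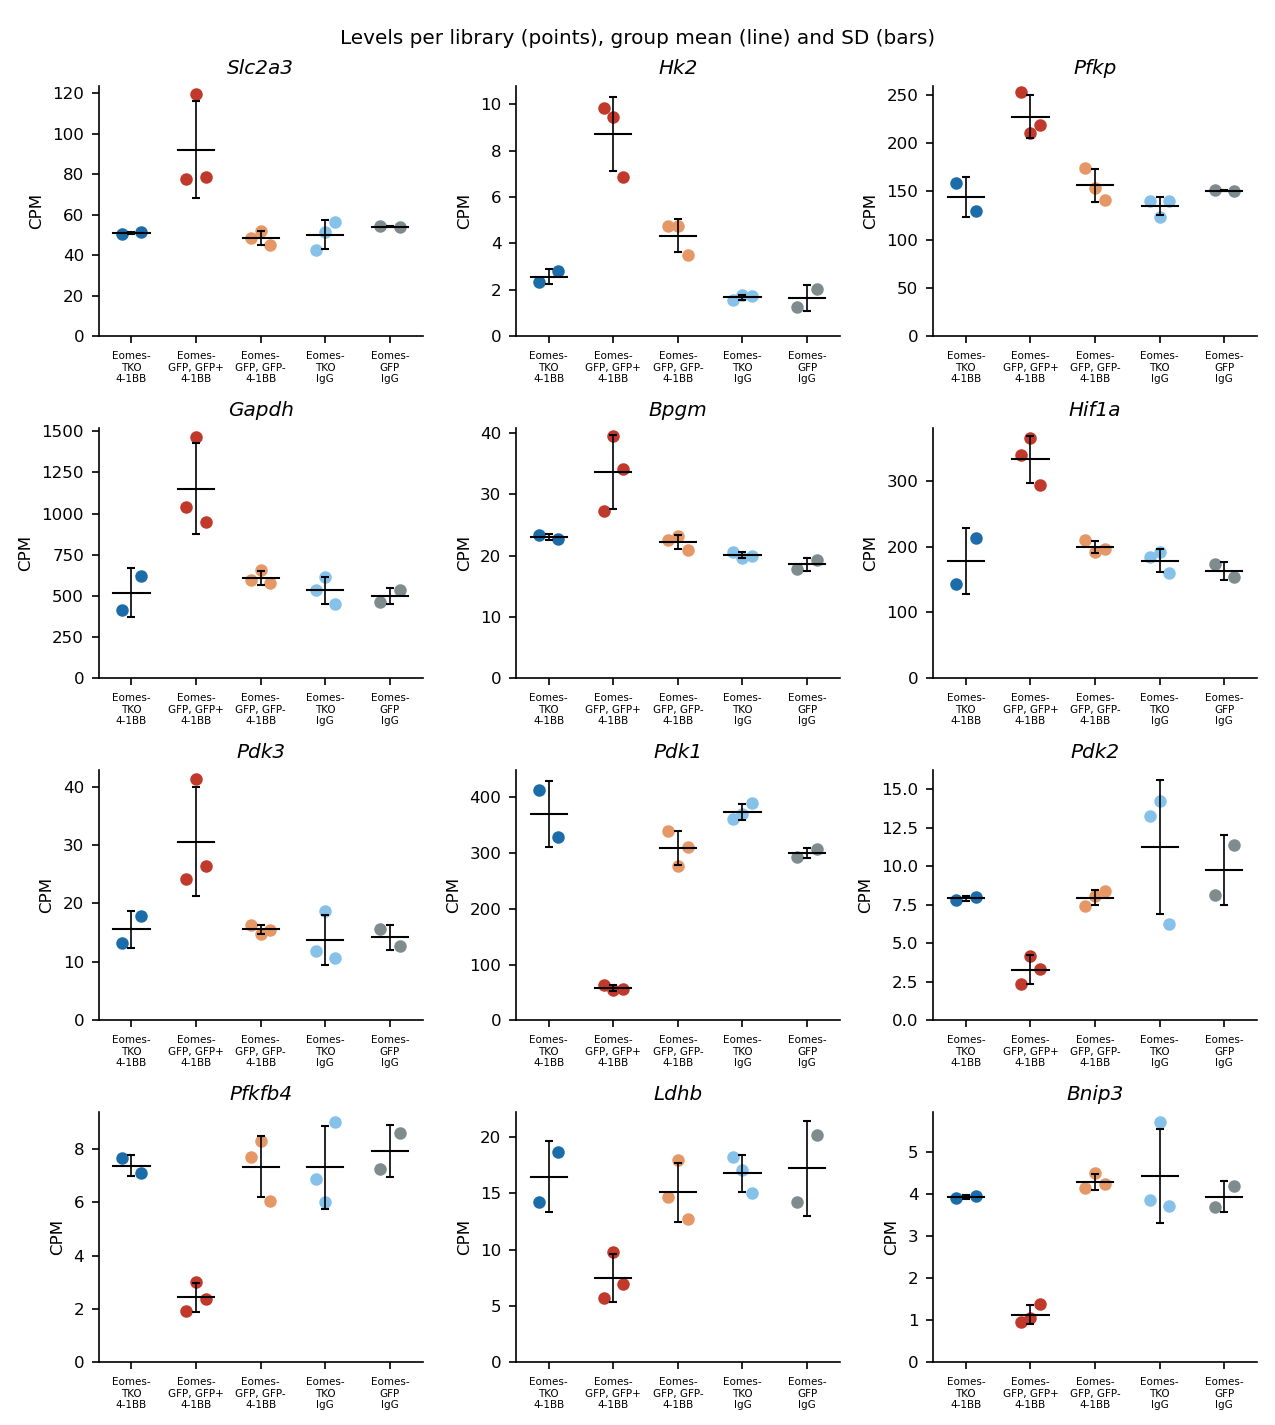
CPM (y axis, from 0) of 12 members in each of the 13 libraries, by group (x axis); points are libraries, lines group means and bars SD. GFP+ libraries are the highest for Slc2a3, Hk2, Pfkp, Gapdh, Bpgm, Hif1a and Pdk3 and the lowest for Pdk1, Pdk2, Pfkfb4, Ldhb and Bnip3, as in the 24.1 to 41.2 CPM of Pdk3 and the 54.9 to 64.2 CPM of Pdk1.

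In the pentose phosphate pathway Pgd, the second NADPH-producing enzyme, was the 1 gene of 4 that was called. It stood at 69.2, 78.7 and 72.2 CPM in GFP+ libraries and 57.6, 57.6 and 57.4 CPM in GFP− libraries. The log2 fold change of 0.35 (SE 0.12, adjusted p 0.0306) was not called under upper-quartile scaling. A fold threshold aside, the call held in 8 of 16 alternatives, none of them with a library left out. G6pdx, the entry enzyme, and Tkt and Taldo1 of the non-oxidative branch had log2 fold changes of 0.27 (SE 0.15), 0.27 (SE 0.14) and 0.28 (SE 0.18). These were not called, and their libraries overlapped.

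Hif1a stood at 338, 364 and 294 CPM in GFP+ libraries, against 209, 191 and 196 CPM in GFP− libraries. The groups did not overlap, and the log2 fold change was 0.74 (SE 0.13, adjusted p 0.000566). Bnip3, a mitophagy receptor and HIF-1 target, went the other way at low levels, with 0.970, 1.05 and 1.40 CPM in GFP+ libraries and 4.15, 4.51 and 4.25 CPM in GFP− libraries (a log2 fold change of −1.89, SE 0.31, adjusted p 0.000249). P4ha1, a collagen prolyl hydroxylase subunit induced by hypoxia, stood at 28.8, 41.1 and 35.2 CPM in GFP+ cells, against 37.3, 53.0 and 48.0 CPM in GFP− cells. It was the 1 called member whose groups overlapped (a log2 fold change of −0.39, SE 0.15, adjusted p 0.0481). The P4ha1 call held in 2 of 6 fits with 1 library left out. Egln3, a HIF prolyl hydroxylase that HIF itself induces, did not overlap, at 4.84 to 5.54 CPM in GFP+ cells, against 6.46 to 7.20 CPM in GFP− libraries, and was not called (a log2 fold change of −0.41, SE 0.27, adjusted p 0.260). Hif1a RNA was thus higher in GFP+ cells while 2 of the other 3 genes of this role were lower and the third, Egln3, was not called.

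HIF-1 binds the core ACGTG, and the E-box CACGTG, bound by MYC and other factors, contains that core. Promoters of 5 members, from 250 bases before to 50 bases after the start in the RefSeq table for GRCm38.p6, are shown to set those letters beside opposite changes: Hif1a, Hk2 and Pdk3 were higher in GFP+ cells, Ldha was not called and Bnip3 was lower. The Hif1a window is chr12:73907617-73907916 on the plus strand, that of Hk2 chr6:82774405-82774704 on the minus strand, that of Pdk3 chrX:93832101-93832400 on the minus strand, that of Ldha chr7:46845554-46845853 on the plus strand and that of Bnip3 chr7:138909457-138909756 on the minus strand. Sequences read 5′ to 3′ on the gene's strand, and capitals mark ACGTG on either strand, with CACGTG in full.
Hif1a: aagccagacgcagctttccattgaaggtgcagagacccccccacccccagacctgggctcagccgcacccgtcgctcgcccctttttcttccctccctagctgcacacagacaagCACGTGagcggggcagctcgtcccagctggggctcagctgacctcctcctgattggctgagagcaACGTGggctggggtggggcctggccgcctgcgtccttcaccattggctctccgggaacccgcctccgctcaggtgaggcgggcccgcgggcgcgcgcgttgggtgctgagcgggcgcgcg
Hk2: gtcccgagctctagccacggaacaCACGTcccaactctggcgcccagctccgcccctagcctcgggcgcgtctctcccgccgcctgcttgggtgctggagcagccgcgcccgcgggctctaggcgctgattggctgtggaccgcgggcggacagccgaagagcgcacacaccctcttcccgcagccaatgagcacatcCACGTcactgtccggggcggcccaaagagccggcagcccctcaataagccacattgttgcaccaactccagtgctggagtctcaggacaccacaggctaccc
Pdk3: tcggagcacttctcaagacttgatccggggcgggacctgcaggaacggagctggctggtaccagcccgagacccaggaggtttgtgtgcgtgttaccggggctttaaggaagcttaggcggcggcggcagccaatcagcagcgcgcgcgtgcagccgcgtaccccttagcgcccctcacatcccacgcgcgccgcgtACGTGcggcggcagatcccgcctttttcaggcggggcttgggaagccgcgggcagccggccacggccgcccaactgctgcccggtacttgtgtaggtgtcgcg
Ldha: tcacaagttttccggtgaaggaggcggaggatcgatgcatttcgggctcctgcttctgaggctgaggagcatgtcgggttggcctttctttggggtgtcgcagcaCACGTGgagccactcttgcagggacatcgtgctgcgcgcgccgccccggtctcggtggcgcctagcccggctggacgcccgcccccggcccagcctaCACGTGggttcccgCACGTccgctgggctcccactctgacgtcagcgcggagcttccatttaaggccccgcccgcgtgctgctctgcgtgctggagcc
Bnip3: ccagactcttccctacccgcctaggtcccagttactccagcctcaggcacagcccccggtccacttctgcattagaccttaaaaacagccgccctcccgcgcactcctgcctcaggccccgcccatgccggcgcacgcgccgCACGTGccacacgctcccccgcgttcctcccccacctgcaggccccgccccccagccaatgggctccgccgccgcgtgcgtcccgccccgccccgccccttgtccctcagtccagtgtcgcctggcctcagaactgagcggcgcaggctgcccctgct
The core occurred, on either strand, in at least 1 listed promoter of 22 of the 39 members with an entry (56.4%), against 21.8% of 27025 genes in the table and 29.6% of the 9428 tested genes matched to it. The E-box occurred in 7 of 39 members (17.9%), against 8.09% of all genes and 11.7% of tested genes. Members hold 55 promoters over 39 genes, and a gene counts once. Among members called higher in GFP+ cells 9 of 14 held the core, among those called lower 4 of 8, and among those not called 8 of 16. Each promoter shown above holds the core. Pdk1, with the largest change, held none in its listed promoters, nor did Pfkfb4, Ldhb and Pdha1, also lower. Of those higher, Gpi1, Pfkp, Tpi1, Bpgm and Pgd held none. The letters alone do not show binding.

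Ratios of counts within a library do not depend on the scaling between libraries. The pairs were picked after the values were seen, so the ratios are a description. Pdk3 over Pdk1 was 0.376, 0.752 and 0.469 in GFP+ libraries and 0.0480, 0.0535 and 0.0501 in GFP− libraries. Over the other 7 libraries it ran from 0.0273 to 0.0542. Ldha over Ldhb was 55.7, 44.7 and 41.4 in GFP+ libraries and 17.9, 17.4 and 23.8 in GFP− libraries. Pfkfb3 over Pfkfb4 ran from 26.9 to 39.6 in GFP+ and from 6.40 to 10.4 in GFP− libraries, and Slc16a3 over Slc16a1 from 0.204 to 0.228 in GFP+ and from 0.0625 to 0.0928 in GFP− libraries. Hif1a over Bnip3 was 349, 348 and 210.4 in GFP+ and 50.5, 42.5 and 46.3 in GFP− libraries. Of 9 pairs computed, the GFP+ libraries lay outside the range of all 10 other libraries in 8, the 5 given here among them. Slc2a3 over Slc2a1 was the exception, at 1.34 to 1.73 in GFP+ libraries and 1.00 to 1.44 in the others.

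**Figure D3:**
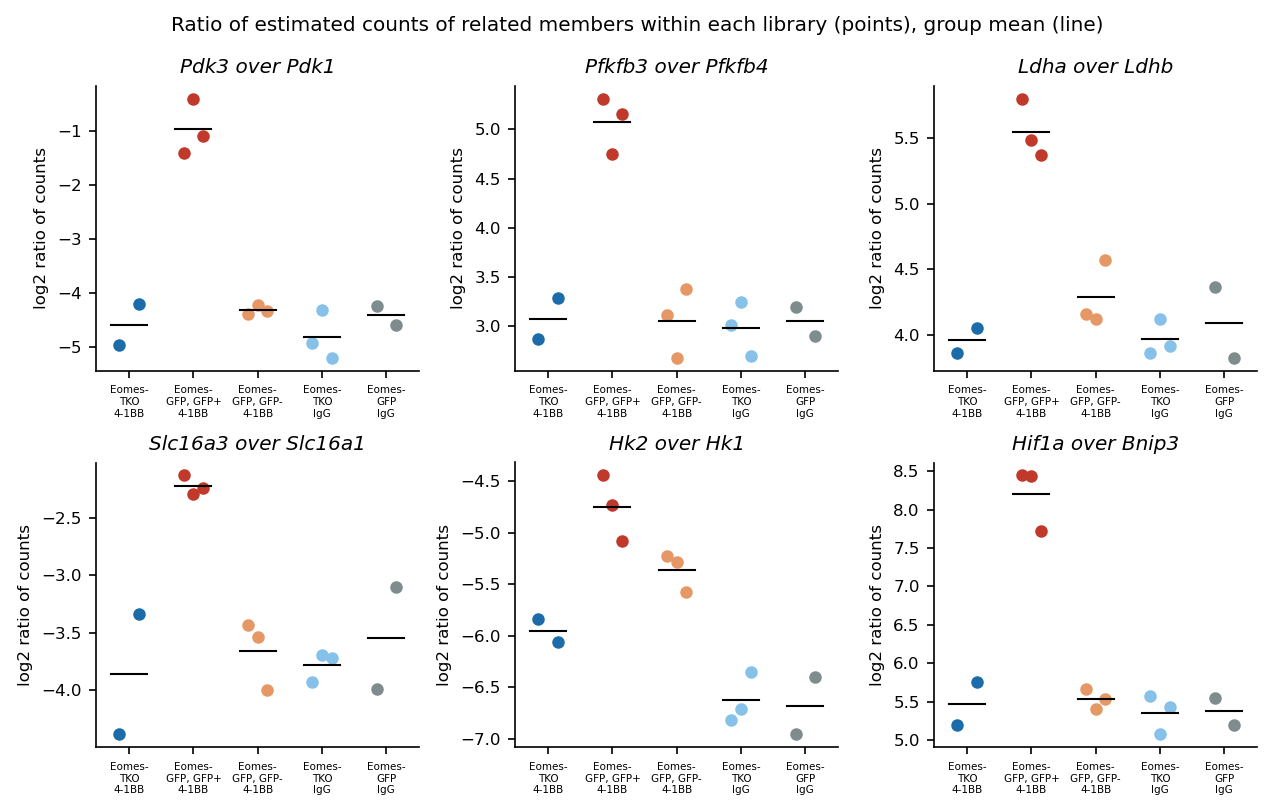
Log2 ratio of the estimated counts of 2 related members (y axis) within each of the 13 libraries by group (x axis), with lines at group means. GFP+ libraries stand above all others in each panel, with Pdk3 over Pdk1 averaging −0.97 in GFP+ and −4.31 in GFP− libraries.

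Averaged over all 40 genes the groups hardly differed. The mean log2 CPM was 5.22 ± 0.116 in GFP+ and 5.20 ± 0.0169 in GFP− libraries (SD, n = 3 each). By role the GFP+ libraries were above the GFP− libraries for glucose import, at 5.99 to 6.51 and 5.50 to 5.56, for lower glycolysis, at 6.11 to 6.40 and 5.80 to 5.89, and for the pentose phosphate genes, at 6.19 to 6.54 and 5.93 to 6.11. They were below them for pyruvate entry, at 4.61 to 4.84 and 5.14 to 5.27, and for the 4 hypoxia genes, at 4.01 to 4.17 and 4.49 to 4.58. The second GFP+ library was the highest of its group for 26 of the 40 genes, 11 of the 15 called higher among them. Without it 8 members were called higher and 8 lower.

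**Figure D4:**
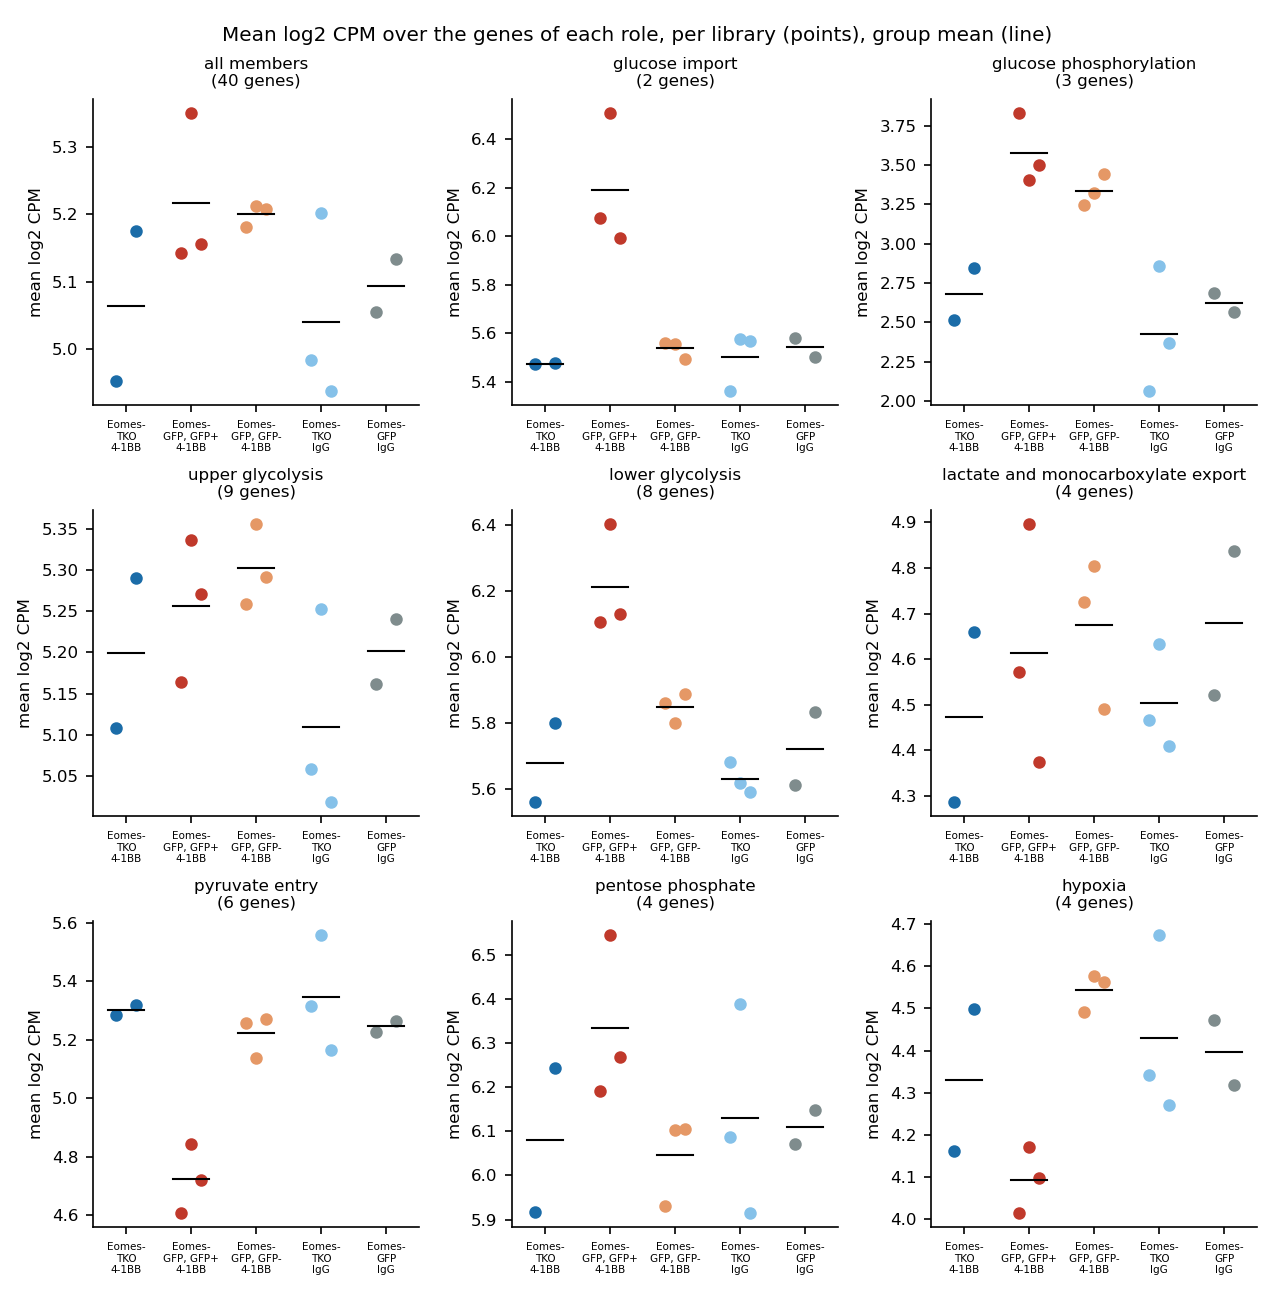
Mean log2 CPM (y axis, not starting at 0) over all 40 genes and over the genes of each role in the 13 libraries, by group (x axis), with lines at group means. Glucose import runs from 5.99 to 6.51 in GFP+ libraries, above every other library, and pyruvate entry from 4.61 to 4.84, below every other library.

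Other genes of these pathways, taken from lists, moved in both directions between GFP+ and GFP− cells. The counts stand beside 20.7% of all genes tested called higher and 16.5% called lower. Of 19 further glycolytic and gluconeogenic genes tested, 7 were higher and 5 lower. The intracellular glucose carrier Slc2a8 stood at 9.01 ± 3.58 CPM in GFP+ cells, against 2.07 ± 0.532 CPM in GFP− cells (a log2 fold change of 2.10, SE 0.34, adjusted p 0.000222). Ldhd, the D-lactate dehydrogenase, stood at 0.398 ± 0.293 CPM in GFP+ cells, against 4.58 ± 1.66 CPM in GFP− cells (a log2 fold change of −3.56, SE 0.51, adjusted p 6.91e-05). Adpgk, an ADP-dependent glucokinase, stood at 31.4 ± 1.18 CPM in GFP+ cells, against 70.2 ± 4.97 CPM in GFP− cells (a log2 fold change of −1.16, SE 0.14, adjusted p 1.08e-05). The 2 chaperones of monocarboxylate carriers parted, with embigin (Emb) lower at −1.67 (SE 0.11, adjusted p 4.44e-08) and basigin (Bsg) higher at 0.46 (SE 0.15, adjusted p 0.0235). Of 13 further genes of pyruvate entry 2 were higher and 1 lower, and of 11 further pentose phosphate genes 1 was higher and 2 were lower. Rpia, ribose 5-phosphate isomerase, was higher (0.64, SE 0.18, adjusted p 0.0111). H6pd, the hexose 6-phosphate dehydrogenase of the endoplasmic reticulum, was lower (−0.41, SE 0.12, adjusted p 0.0136).

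Among 11 genes of oxygen sensing 3 were higher and 2 lower, where 20.7% of all genes were higher and 16.5% lower. Epas1, which encodes HIF-2α, stood at 150.1 ± 19.3 CPM in GFP+ cells, against 25.7 ± 3.56 CPM in GFP− cells, with a log2 fold change of 2.54 (SE 0.13, adjusted p 2.54e-09). Hif1an, which encodes the asparaginyl hydroxylase that blocks HIF, was also higher (0.74, SE 0.12, adjusted p 0.000197), as was Vhl, whose product marks HIF for degradation (0.48, SE 0.15, adjusted p 0.0184). Siah2, a ubiquitin ligase of HIF prolyl hydroxylases, was lower (−0.67, SE 0.17, adjusted p 0.00785), and so was Arnt, the HIF partner (−0.27, SE 0.10, adjusted p 0.0438). Of 31 other genes known to be induced by hypoxia 8 were higher and 8 lower, beside the same shares of all genes. Bhlhe40 stood at 553 ± 105 CPM in GFP+ cells, against 115 ± 19.9 CPM in GFP− cells (a log2 fold change of 2.26, SE 0.30, adjusted p 0.000175). Plod2, Anxa2 and Klf10 were also higher, at 2.87 (SE 0.62), 2.59 (SE 0.30) and 1.69 (SE 0.23). Pam, P4ha2 and Stc2 were lower, at −1.97 (SE 0.26), −3.55 (SE 0.83) and −2.22 (SE 0.77). P4ha2 was at 0, 0 and 0.322 CPM in GFP+ libraries and 0.853 to 2.07 CPM in GFP− libraries. Stc2 was at 0.215 to 0.277 CPM in GFP+ libraries and 0.610 to 2.08 CPM in GFP− libraries. In GFP+ libraries both lay at or below 3 counts, so the sizes of these 2 changes are uncertain. Vegfa, at 1.57 ± 0.836 CPM in GFP− cells, had no count in the 3 GFP+ libraries, which makes it at least 12.67-fold lower there, taking 3 counts over the group as the floor, or at least 7.795-fold without the third GFP+ library.

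Of 14 genes of growth and nutrient signalling 5 were higher and 3 lower in GFP+ cells, against 20.7% and 16.5% of all genes. Myc, a driver of glycolytic genes in activated T cells, stood at 21.8, 23.2 and 26.1 CPM in GFP+ libraries, against 78.7, 89.9 and 98.0 CPM in GFP− libraries, without overlap (a log2 fold change of −1.91, SE 0.23, adjusted p 3.16e-05). Txnip, which restrains glucose uptake, was lower at −1.02 (SE 0.11, adjusted p 5.70e-06), and Slc7a5, a carrier of large neutral amino acids, at −0.996 (SE 0.25, adjusted p 0.00705). Irf4, a transcription factor that supports T cell glycolysis, was higher at 1.55 (SE 0.28, adjusted p 0.00104), and Slc1a5, a glutamine carrier, at 0.56 (SE 0.12, adjusted p 0.00209).

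The GFP+ cells were next set against the Eomes-GFP mice given IgG, a comparison that mixes antibody with sorting, since the IgG cells were not divided by GFP. It shares the GFP+ libraries with the comparison above, so the members' values are given side by side and not as a second line of support. Here 13 members were higher in GFP+ cells and 6 lower, against 34.2% of all genes called, 18.8% as higher and 15.4% as lower. The members called lower were thus near the share of all genes. Under upper-quartile scaling 10 were higher and 8 lower, and the median of all genes lay at −0.14. Hk2 stood at 9.84, 9.43 and 6.88 CPM in GFP+ libraries and 1.27 and 2.06 CPM in IgG libraries (a log2 fold change of 2.36, SE 0.34, adjusted p 8.31e-05). Pdk1, at 293 and 307 CPM in IgG libraries, was lower in GFP+ cells (−2.36, SE 0.12, adjusted p 3.81e-09). Gapdh was higher at 1.20 (SE 0.21, adjusted p 0.000506), Hif1a at 1.02 (SE 0.15, adjusted p 0.000120), and Ldhb lower at −1.20 (SE 0.25, adjusted p 0.00171). Pgam1, phosphoglycerate mutase, was called here and not between GFP+ and GFP− cells, at 0.51 (SE 0.16, adjusted p 0.0221) against 0.24 (SE 0.14, adjusted p 0.206), and the difference of these was not tested. Without the second IgG library 12 members were called, and with a test against a fold of 1.5 there were 8.

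Eomes-TKO cells under 4-1BB antibody differed from GFP+ cells in 21 members, 6 higher and 15 lower in Eomes-TKO, where 34.6% of all genes were called. Of all genes 15.7% were higher in Eomes-TKO and 18.8% lower, so the members called higher were near the share of all genes. Genotype, sorting on GFP and the level of Eomes cannot be told apart in this comparison, which also shares the GFP+ libraries. Pdk1 stood at 413 and 329 CPM in Eomes-TKO libraries, against 64.2, 54.9 and 56.3 CPM in GFP+ libraries, with no overlap (a log2 fold change of 2.67, SE 0.12, adjusted p 1.41e-09). Pfkfb4 was higher in Eomes-TKO at 1.59 (SE 0.29, adjusted p 0.000627), Ldhb at 1.14 (SE 0.25, adjusted p 0.00276) and Bnip3 at 1.76 (SE 0.34, adjusted p 0.00101). Hk2 stood at 2.34 and 2.82 CPM in Eomes-TKO libraries and was lower than in GFP+ cells by −1.74 on the log2 scale (SE 0.33, adjusted p 0.000834). Gapdh, Hif1a and Slc2a3 were lower at −1.15 (SE 0.21), −0.90 (SE 0.15) and −0.85 (SE 0.18). The first Eomes-TKO library was the lower of its pair for 31 of the 40 genes. Without it 12 members were called, 6 in each direction, and with a test against a fold of 1.5 there were 7. All 33 cell cycle genes were lower in Eomes-TKO than in GFP+ cells.

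The other 4 comparisons called no member. Eomes-TKO under 4-1BB antibody against GFP− cells called 0.0427% of all genes, 0.00711% as higher and 0.0356% as lower, and 3 members, Hk2, Pdk1 and P4ha1, had an unadjusted p below 0.05. Genotype and sorting on GFP cannot be told apart in this comparison. Pdk1 stood at 413 and 329 CPM in Eomes-TKO and 340.2, 278 and 310.3 CPM in GFP− libraries, which overlapped (a log2 fold change of 0.26, SE 0.12, adjusted p 0.706). Hk2 at 2.34 and 2.82 CPM in Eomes-TKO lay below the 3.52 to 4.76 CPM of GFP− libraries, but the adjusted p was 0.696 (a log2 fold change of −0.73, SE 0.33). P4ha1 had a log2 fold change of −0.38 (SE 0.17, adjusted p 0.691). In Eomes-TKO mice 4-1BB antibody against IgG called 0.0427% of all genes, with no member at an unadjusted p below 0.05. Hk2 stood at 2.34 and 2.82 CPM under 4-1BB antibody and 1.56, 1.78 and 1.73 CPM under IgG, without overlap but not called (a log2 fold change of 0.62, SE 0.34, adjusted p 1.00). Pfkl and Pdk2, the other genes with the smallest p, had log2 fold changes of 0.30 (SE 0.15) and −0.51 (SE 0.33). Of the 33 cell cycle genes 3 were called, as higher under the antibody, while all 33 had positive log2 fold changes. Their median was 1.58, against 0.0042 over all genes tested.

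Under IgG, Eomes-TKO against Eomes-GFP mice called 0.0142% of all genes. Pdk1 and P4ha1 had an unadjusted p below 0.05. Pdk1 stood at 361, 371 and 389 CPM in Eomes-TKO and 293 and 307 CPM in Eomes-GFP libraries, which did not overlap (a log2 fold change of 0.32, SE 0.12, adjusted p 1.00). P4ha1 stood at 40.97, 39.6 and 39.6 CPM in Eomes-TKO and 55.2 and 50.9 CPM in Eomes-GFP libraries (a log2 fold change of −0.40, SE 0.16, adjusted p 1.00). GFP− cells against the IgG-treated Eomes-GFP cells called 0.761% of all genes, 0.654% as higher and 0.107% as lower. Antibody and sorting on GFP cannot be told apart here, since the IgG cells were not divided by GFP. Hk2 was the 1 member with an unadjusted p below 0.05, at 4.76, 4.75 and 3.52 CPM in GFP− and 1.27 and 2.06 CPM in IgG libraries. The log2 fold change was 1.35 (SE 0.34), and the adjusted p was 0.0977. This adjusted p was 0.278 without the second GFP− library and 0.0472 with the replicate number as a block, though that number marks no shared prefix between these groups. Without the first Eomes-GFP IgG library the log2 fold change was 1.07. In this comparison 15 of 33 cell cycle genes were higher in GFP− cells, and all 33 had positive log2 fold changes with a median of 1.82. DESeq2 and limma-voom called no member in any of these 4 comparisons.

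Across the 5 groups Hk2 averaged 2.58 ± 0.335 CPM in Eomes-TKO under 4-1BB antibody (n = 2), 8.71 ± 1.60 in GFP+ cells (n = 3), 4.34 ± 0.711 in GFP− cells (n = 3), 1.69 ± 0.111 in Eomes-TKO under IgG (n = 3) and 1.66 ± 0.554 in Eomes-GFP under IgG (n = 2, SD throughout). The 3 groups given 4-1BB antibody did not overlap each other, and all their libraries were above those of both IgG groups. Hk2 was not called between Eomes-TKO 4-1BB and IgG, nor between GFP− and Eomes-GFP IgG. It had 15 and 27 counts in Eomes-TKO under 4-1BB antibody and 10 to 21 in the IgG libraries. GFP+ and GFP− cells were also sorted on GFP, and the share of all genes with such an order is not given. Pdk1 averaged 58.4 ± 5.01 CPM in GFP+ cells, against 371 ± 59.5 in Eomes-TKO under 4-1BB antibody, 309 ± 31.2 in GFP− cells, 374 ± 14.5 in Eomes-TKO under IgG and 300.1 ± 9.70 in Eomes-GFP under IgG.

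**Figure D5:**
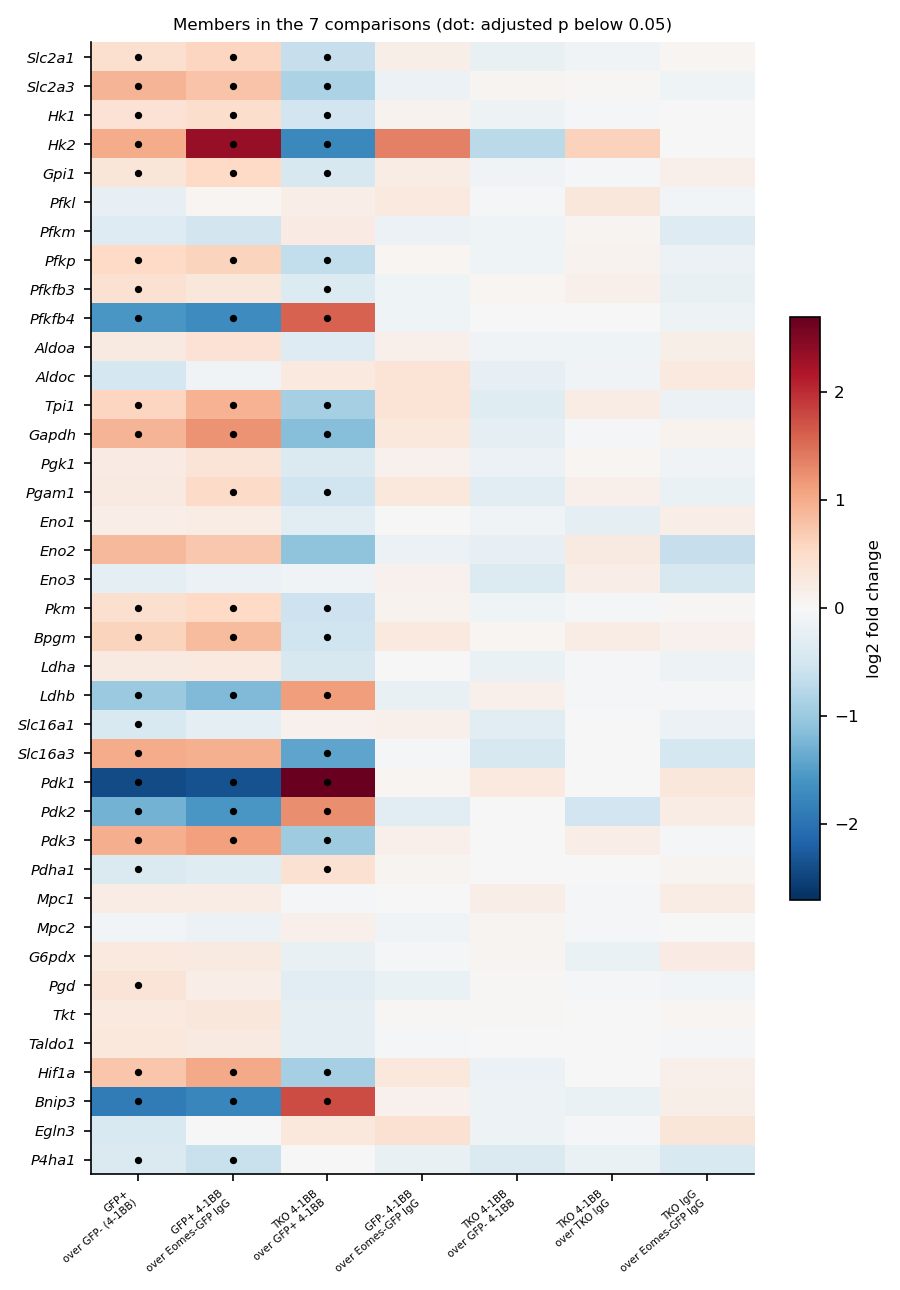
Log2 fold change (colour, log2 scale) of the 39 tested members (rows) in the 7 comparisons (columns), with dots at an adjusted p below 0.05. Dots stand in the 3 columns that hold GFP+ cells, from 2.67 for Pdk1 in Eomes-TKO over GFP+ to −2.40 in GFP+ over GFP−, and in no other column.

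Gm33707, annotated by RefSeq as a pseudogene, bears on Eno1, the main enolase. Its 569-base transcript in GENCODE M21 aligned to Eno1 over 576 positions at 89.2% identity. It had 136 and 91 counts in the Eomes-TKO libraries under 4-1BB antibody and 73, 97 and 147 under IgG, and none in the 8 Eomes-GFP libraries. Taking 3 counts over a group as the floor, it was at least 140.7-fold higher in Eomes-TKO than in GFP− cells under 4-1BB antibody. This bound was 86.91-fold without the first Eomes-TKO library and 84.02-fold without the third GFP− library. Under IgG it was at least 73.72-fold higher in Eomes-TKO than in Eomes-GFP mice, or 41.65-fold without the first and 32.06-fold without the second Eomes-GFP library. The bound describes the counts only, since the test called no gene higher in that comparison, and so not Gm33707. Counts of Gm33707 in Eomes-TKO libraries equalled 1.64% to 5.68% of those of Eno1. Eno1, at 374 to 559 CPM in Eomes-TKO libraries, is uncertain there to that extent, since reads could be split between the 2 genes. Exons of 14 members overlap a gene on the opposite strand in that annotation, Bnip3, Gpi1, Hif1a, Pdha1 and Pfkp by over 300 bases, and the sources used here do not say whether counting used the strand.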

How the data were processed

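RNA of sorted CD4+ T cells was sequenced after ribosomal depletion, per the labels' protocols. The authors deposited estimated counts per gene, and per the submitters' processing notes the build was GRCm39 and the tools included Salmon 1.5.2, STAR 2.7.10a, Trim Galore 0.6.7 and cutadapt 3.4. These expected counts were rounded. The table had 47 library columns, of which 13 matched a label and 34 were not used here. Genes were tested in R 4.3.3 with edgeR 4.0.16 (filterByExpr, TMM, robust quasi-likelihood, 1 model of 5 groups with 8 residual degrees of freedom, two-sided, Benjamini-Hochberg over 14059 genes, threshold 0.05), a procedure also tested on simulated data. SE is the size of the log2 fold change over the root of F. Log2 CPM used a prior count of 2. The members, lists and comparisons were chosen with earlier results of these data known. Named members were up to 8 per direction with the largest change and a mean log2 CPM of at least 2, or the 3 smallest p where fewer than 3 passed, plus Hif1a, Slc2a1, Hk2, Ldha, Ldhb and Gapdh, and up to 4 genes per direction in each related list. Bnip3, Slc16a3 and other members and listed genes outside that rule were described after their values were seen.

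The labels do not say that replicates were separate animals, so p-values reflect only how these libraries vary, which may be technical. GFP+ and GFP− libraries of the same number shared a library prefix, read as the animal. Within such pairs, deviations from group means had correlations of 0.32, 0.11 and 0.061, against −0.25 to 0.15 for other pairs. Depth was 6080975 to 10881146 counts, and 3 counts equal 0.271 to 0.468 CPM, which covers counting error only. Alternatives were upper-quartile, RLE and library-size scaling, other filters, DESeq2 1.42.0, limma-voom (limma 3.58.1), the 2 groups alone, a replicate block, a fold threshold of 1.5, copies added to their parent gene (for comparisons other than GFP+ against GFP−, chosen after seeing the data) and leaving out each library. Lengths came from GENCODE M21 and promoters from RefSeq GRCm38.p6, an older build than that of the counts.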

Additional observations from a re-analysis of the deposited data

How the results depend on the processing

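Groups of 2 or 3 libraries limit every test, and low members such as Bnip3 and Slc16a3 rest on few counts. A fold threshold of 1.5 left 5 called members between GFP+ and GFP− cells, 7 between Eomes-TKO 4-1BB and GFP+ and 8 between GFP+ and Eomes-GFP IgG, against 23, 21 and 19. Leaving out 1 library gave 15 to 19, 12 to 22 and 12 to 19. The replicate block by animal kept the count at 23 between GFP+ and GFP− cells. With the replicate number as a block it gave 24 for Eomes-TKO 4-1BB against GFP+, 22 for GFP+ against Eomes-GFP IgG and 1, Hk2, for GFP− against Eomes-GFP IgG. Outside the GFP+ and GFP− pairs libraries of the same number share no prefix, so this number marks no known animal or batch. The difference in mean log2 CPM of the members was 0.0165 between GFP+ and GFP− and −0.12 under upper-quartile scaling, −0.15 and 0.00393 between Eomes-TKO 4-1BB and GFP+, and 0.12 and −0.0120 between GFP+ and Eomes-GFP IgG. It ran from −0.25 to −0.0246 between Eomes-TKO 4-1BB and GFP−, and from 0.0668 to 0.145 between GFP− and Eomes-GFP IgG, when 1 library was left out. The cause of these shifts was not tested.

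Reversals of sign occurred in uncalled values only. Hk2 in Eomes-TKO IgG against Eomes-GFP IgG was −0.00206 by DESeq2, and Ldhb was 0.0652 there with the replicate block. Hif1a in Eomes-TKO 4-1BB against IgG was 0.00973 by upper-quartile, 0.00189 by RLE, 0.000941 with the stricter filter, 0.0021 by DESeq2 and 0.00677 with the 2 groups alone. Ldha in GFP− against Eomes-GFP IgG was −0.0221 by library size. With 1 library left out, Eomes-TKO IgG against Eomes-GFP IgG ran from −0.032 to 0.13 for Slc2a1, −0.28 to 0.40 for Hk2, −0.26 to 0.24 for Ldhb and −0.014 to 0.22 for Gapdh. Eomes-TKO 4-1BB against IgG ran from −0.33 to 0.26 for Hif1a, −0.35 to 0.23 for Ldha, −0.24 to 0.15 for Ldhb and −0.38 to 0.22 for Gapdh. Eomes-TKO 4-1BB against GFP− ran from −0.48 to 0.097 for Hif1a, −0.50 to 0.079 for Ldha, −0.086 to 0.30 for Ldhb and −0.56 to 0.027 for Gapdh. GFP− against Eomes-GFP IgG ran from −0.033 to 0.086 for Ldha and −0.42 to 0.080 for Ldhb.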
